A study of Mus musculus with 10 samples.

Results

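The 38 genes described here are parentally imprinted mouse genes, chosen by name and grouped by the imprinted domain in which they lie. Of the 38, 37 had a probe under that name on the array and Rian had none. The 37 genes were read by 72 probes, and 34 of them passed the filter on dim probes, out of 28020 genes that passed it in the whole series. All 34 were well above background on all 10 arrays, so none of them passed through 1 group alone. The other 3 were dim. No probe of Usp29 or Rasgrf1 was well above background on any array, and for Zim1 1 of 2 probes was, on 2 arrays (Ts8 replicate 1 and WT replicate 2).

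An imprinted gene is expressed mainly from the copy inherited from one parent. Which copy is used is set by DNA methylation laid down in the egg or the sperm at an imprinting control region, and many imprinted genes lie in domains where one control region governs several genes, often through a long noncoding RNA. Many of these genes act on fetal and placental growth, with Igf2 promoting growth and H19, Igf2r, Cdkn1c, Phlda2 and Grb10 restraining it. In cultured embryonic stem (ES) cells, imprints are known to be unstable, and levels of imprinted transcripts can differ between lines and between subclones. The arrays measured total transcript and not the 2 alleles, so loss of imprinting, an added copy and another level of transcription of the same allele cannot be told apart here.

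In all, 4 ES cell lines, each trisomic for 1 chromosome, were compared with diploid cells, with 2 biological replicates of each taken at different passages. The lines were Ts6 (chromosome 6, passages 9 and 18), Ts8 (chromosome 8, passages 10 and 13), Ts11 (chromosome 11, passages 8 and 11) and Ts15 (chromosome 15, passages 11 and 14), all labelled strain 129 S7/SvEvBrd. WT was the male diploid line AB1 at passages 18 and 20. All cells were grown on irradiated SNL76/7 feeder cells, which were depleted by letting them settle before RNA was extracted. Each trisomy was represented by samples under 1 line name, and the labels do not say whether a line was a single clone. The extra chromosome and any other difference of a line cannot be told apart, and the p-values measure the spread between the 2 samples of a line.

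Expression was read as 1-colour intensity, and values are log2 signal relative to the 75th percentile of the array, which is 0 on this scale. Levels of different genes are not set against each other, since each probe has its own brightness. The share of spots well above background was 71.4% to 80.2% per array, no spot was saturated, and the number of arrays (2 per group) limits the precision. All 12 ES cell markers in the marker list were well above background on all 10 arrays. Ts15 lay on slide 2 and the other groups on slide 1, so slide and Ts15 cannot be told apart. Differences are given as line minus WT, with limma's standard error (SE) and its p-value adjusted over all 28020 genes. A gene was called at an adjusted p under 0.05.

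Each line had 3 to 8 of the imprinted genes called against WT, among them Grb10, which fell in Ts6 and Ts15, and Cdkn1c, which fell in Ts6 and Ts11 and rose in Ts8. In Ts6, 8 of 34 members were called, 23.5%, beside 9.04% of all genes tested: 1 was called higher, beside 4.43% of all genes, and 7 lower, beside 4.61%. In Ts8, 4 were called, beside a background of 3.56%: 1 was called higher (2.1% of all genes) and 3 lower (1.46%). In Ts11, 5 were called, beside 8.13%, with 2 higher (4.04%) and 3 lower (4.09%). In Ts15, 3 were called, beside 7.48%, with 0 higher (2.58%) and 3 lower (4.89%). These are 20 calls in 14 genes: 9 genes were called in 1 line, 4 in 2 lines and 1, Cdkn1c, in 3 lines. The share in Ts15 was close to its background.

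The median log2 difference of the members was -0.35 in Ts6, against -0.01 for all genes tested, and 27 of 34 members were below 0 there. Of 23 feeder fibroblast markers, 22 were also below WT in Ts6 (median -0.45), and their part in the member values was not tested. In Ts8 the member median was 0.01 beside 0.04 for all genes, in Ts11 -0.05 beside 0.00, and in Ts15 0.01 beside -0.01, with 17, 17 and 16 of 34 below 0. The median size of the difference, regardless of direction, was 0.38, 0.30, 0.37 and 0.29 in Ts6, Ts8, Ts11 and Ts15, beside 0.21 to 0.22 for all genes in each comparison. The 4 comparisons share the 2 WT arrays. Both arrays of the line lay outside the WT range for 24 of 34 members when the line was Ts6, beside 57.6% of all genes, while Ts8 had 20 such members (55.5% of all genes), Ts11 25 (53.7%) and Ts15 18 (57.2%). In Ts6, both arrays were below the WT range for 20 of the 34 members, beside 30.5% of all genes.

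**Figure D1:**
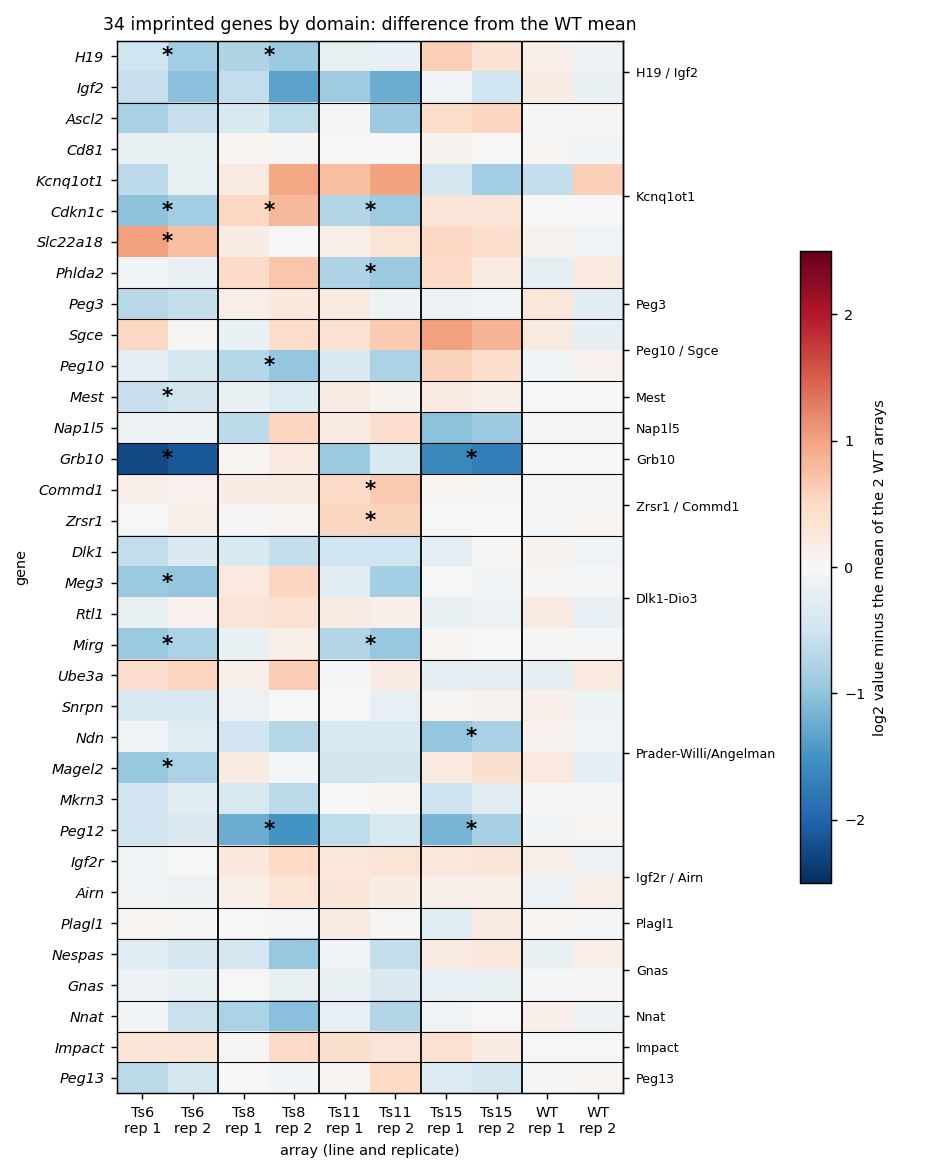
Each row is 1 of the 34 tested members, grouped by domain, and each column 1 array; colour gives the log2 value minus the mean of the 2 WT arrays, and a star between 2 arrays marks a call of that line against WT. Grb10 in Ts6 and Ts15 has the darkest blue, and Cdkn1c is blue in Ts6 and Ts11 and red in Ts8.

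Of the members, 8 lie on a chromosome that is trisomic in 1 of the lines: Sgce, Peg10, Mest and Nap1l5 on chromosome 6, Grb10, Commd1 and Zrsr1 on chromosome 11, and Peg13 on chromosome 15. None lies on chromosome 8. An extra copy beside a pair, with every copy equally active, would give a log2 difference of 0.58. The median difference over all genes of the extra chromosome was 0.15 for chromosome 6 in Ts6 (1444 genes), 0.18 for chromosome 11 in Ts11 (1984 genes) and 0.19 for chromosome 15 in Ts15 (1101 genes). For an imprinted gene, an extra copy adds expression only where the extra copy carries the active allele. The value 0.58 is therefore not the expectation for a gene with a single active copy. It is given below only as the mark for a gene equally active from every copy. The parental origin of the extra chromosomes is not given in the sources used here. Of the 8, only Commd1 and Zrsr1 were called higher with their own trisomy, Mest was called lower, and the other 5 were not called.

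Zrsr1, a paternally expressed retrogene that encodes a splicing factor related to U2af1, lies within the Commd1 gene in the RefSeq annotation. Zrsr1 had log2 values in Ts6 of 1.75 and 1.91, in Ts8 of 1.78 and 1.83, in Ts11 of 2.29 and 2.32, in Ts15 of 1.75 and 1.77, and in WT of 1.71 and 1.81. Both Ts11 arrays were above all 8 others, which spanned 1.71 to 1.91. The log2 difference in Ts11 was 0.54 (SE 0.10, adjusted p = 0.021), a 1.46-fold higher signal, with a 95% interval of 0.31 to 0.78 that includes 0.58. In the other 3 lines the difference was 0.00 to 0.07 and was not called. Commd1, its host gene, which acts in copper transport and NF-kB signalling, is reported to favour the maternal allele in some tissues. Commd1 had log2 values in Ts6 of 2.35 and 2.34, in Ts8 of 2.41 and 2.44, in Ts11 of 2.71 and 2.88, in Ts15 of 2.27 and 2.25, and in WT of 2.25 and 2.21. Its Ts11 arrays too were above all others. The difference in Ts11 was 0.57 (SE 0.10, adjusted p = 0.0172), a 1.49-fold higher signal with an interval of 0.34 to 0.80. Zrsr1 and its host gene were thus both higher in Ts11. Both calls ended without WT replicate 1, without WT replicate 2, without Ts11 replicate 2, in a fit to the 4 arrays compared and with passage as a covariate; the Zrsr1 call also ended without Ts11 replicate 1.

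Grb10, also on chromosome 11, encodes an adaptor that restrains signalling by the insulin and IGF receptors, and is expressed from the maternal allele in most tissues. Grb10 had log2 values in Ts6 of -3.60 and -3.47, in Ts8 of -1.31 and -1.10, in Ts11 of -2.27 and -1.73, in Ts15 of -2.96 and -3.05, and in WT of -1.37 and -1.34. Its values fell into distinct levels, with Ts8 and WT highest, Ts11 below them, Ts15 lower still and Ts6 lowest, and no overlap between Ts6, Ts11, Ts15 and WT. The difference was -2.18 (SE 0.18, adjusted p = 0.000719) in Ts6, a 4.53-fold lower signal, and -1.65 (SE 0.18, adjusted p = 0.00347) in Ts15, a 3.14-fold lower signal. In Ts11, which has the extra copy, it was -0.65 (SE 0.18, adjusted p = 0.0702) and was not called, with an interval of -1.06 to -0.23 that lies below 0.58. In Ts8 it was 0.15 (SE 0.18, adjusted p = 0.648). Of the 6 pairs of lines, 5 differed in the test, the exception being Ts6 against Ts15 with a difference of -0.53 (SE 0.18, adjusted p = 0.0788). The pair call between Ts8 and Ts11 ended in 7 of 14 repeats, among them the deposited series table and the slide 1 arrays alone. Those of Ts6 against Ts11 and of Ts11 against Ts15 ended in 1 of 14 and 1 of 13. The calls against WT in Ts6 and Ts15 held under every alternative run. They rest on 1 probe, which was well above background on all 10 arrays but dim in Ts6 and Ts15.

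Mest, on chromosome 6, encodes a protein of the alpha/beta hydrolase fold family and is expressed from the paternal allele. Mest had log2 values in Ts6 of 1.88 and 2.00, in Ts8 of 2.30 and 2.13, in Ts11 of 2.69 and 2.55, in Ts15 of 2.69 and 2.59, and in WT of 2.48 and 2.45. The 2 Ts6 arrays were the lowest of the 10, and chromosome 6 has 3 copies in that line. The difference in Ts6 was -0.52 (SE 0.11, adjusted p = 0.0297), with an interval of -0.78 to -0.26, and lay at percentile 6.02 among the differences of chromosome 6 genes in that line. All 3 Mest probes were below WT in Ts6, from -0.52 to -0.45. Against Ts11 and Ts15, Ts6 was lower by the test as well, with differences of -0.67 (SE 0.11, adjusted p = 0.0173) and -0.70 (SE 0.11, adjusted p = 0.00638). The call against WT ended when any of the 4 arrays compared was left out, with the mean of all probes, with any probe having a flagged spot left out, in a fit to 4 arrays and with passage as a covariate.

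Peg10 and Sgce are neighbours on chromosome 6 that share a control region and are expressed from the paternal allele. Peg10, derived from a retrotransposon, is needed for the placenta. Peg10 had log2 values in Ts6 of -0.02 and -0.20, in Ts8 of -0.47 and -0.73, in Ts11 of -0.14 and -0.56, in Ts15 of 0.82 and 0.67, and in WT of 0.13 and 0.34. Ts15 was highest and Ts8 lowest, and in Ts6 both arrays were below both WT arrays. The difference was -0.34 (SE 0.17, adjusted p = 0.274) in Ts6, with an interval of -0.74 to 0.06 that does not reach 0.58, and the only call was in Ts8, -0.84 (SE 0.17, adjusted p = 0.0463). In Ts11 it was -0.59 (SE 0.17, adjusted p = 0.0832) and in Ts15 0.51 (SE 0.17, adjusted p = 0.124), and Ts6, Ts8 and Ts11 each differed from Ts15 in the test. The other Peg10 probe gave 0.21 in Ts6 and so had the other sign there, while it gave -0.63 in Ts8. The Ts8 call ended without either WT array, without Ts8 replicate 2, with the replicate block, with no filter on dim probes, with the slide 1 arrays alone, in a fit to 4 arrays and with passage as a covariate.

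Sgce encodes epsilon-sarcoglycan, a membrane protein. Sgce had log2 values in Ts6 of 0.81 and 0.31, in Ts8 of 0.13 and 0.75, in Ts11 of 0.67 and 0.94, in Ts15 of 1.31 and 1.14, and in WT of 0.52 and 0.06. The Ts6 arrays overlapped WT, and both Ts15 arrays were above every other array. The difference was 0.27 (SE 0.26, adjusted p = 0.588) in Ts6, with an interval of -0.34 to 0.88 that holds both 0 and 0.58, and 0.93 (SE 0.26, adjusted p = 0.0749) in Ts15, neither called. Nap1l5, a nucleosome assembly protein-like gene inside Herc3, is expressed from the paternal allele. Nap1l5 had log2 values in Ts6 of -3.57 and -3.58, in Ts8 of -4.11 and -2.91, in Ts11 of -3.25 and -3.04, in Ts15 of -4.48 and -4.36, and in WT of -3.48 and -3.42. In Ts6 it lay close to WT, -0.12 (SE 0.32, adjusted p = 0.862) with an interval of -0.88 to 0.63, and Ts15 was the lowest group, -0.97 (SE 0.32, adjusted p = 0.118). Its other probe was not well above background on Ts15 replicate 1, so no size is given for it.

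Peg13 is a paternally expressed noncoding RNA on chromosome 15. Peg13 had log2 values in Ts6 of -3.70 and -3.48, in Ts8 of -3.05 and -3.11, in Ts11 of -2.96 and -2.53, in Ts15 of -3.37 and -3.47, and in WT of -3.08 and -2.99. In Ts15, where chromosome 15 has 3 copies, both arrays were below both WT arrays, and the difference was -0.38 (SE 0.16, adjusted p = 0.183), with an interval of -0.75 to -0.02. In Ts6 it was -0.55 (SE 0.16, adjusted p = 0.0704), and Ts11 was higher than Ts6 and Ts15 in the test (Ts6 minus Ts11 -0.85, Ts11 minus Ts15 0.68).

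**Figure D2:**
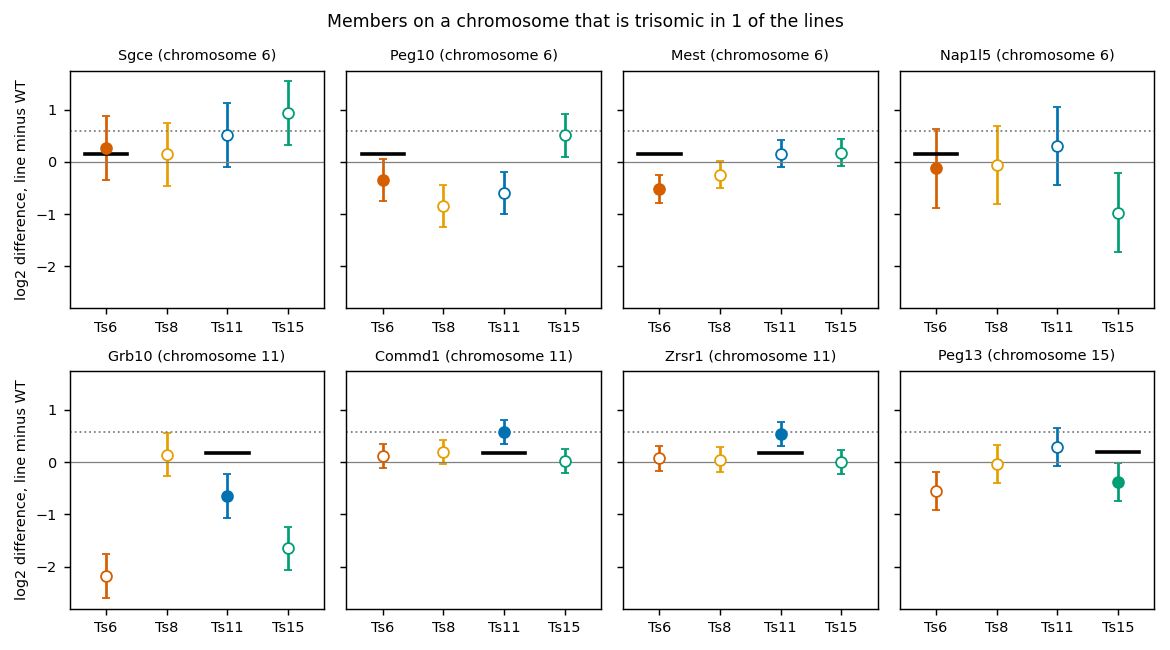
Each panel is 1 of the 8 members on a chromosome trisomic in 1 line; points are log2 differences from WT with 95% intervals, filled in the line with the extra copy. The black bar is the median of all genes on that chromosome in that line. The grey line is 0, and the dotted line is 0.58, the mark for a gene equally active from every copy. The filled points of Commd1, Zrsr1 and Sgce lie above their bar, and those of Mest, Peg10, Nap1l5, Grb10 and Peg13 below 0.

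Promoter sequence is shown for 4 members called in at least 1 line, Mest, Grb10, Zrsr1 and Meg3. The lines give the 250 bases before a RefSeq transcription start of each gene on GRCm38.p6, 5′ to 3′ on the gene's strand. The letters TGCCGC, or GCGGCA for the other strand, are in capitals. This is the hexamer that ZFP57, a zinc finger protein that keeps imprints, binds when it is methylated. Mest is at chr6:30737800-30738049 on the plus strand, Grb10 at chr11:12037421-12037670 on the minus strand, Zrsr1 at chr11:22971755-22972004 on the plus strand and Meg3 at chr12:109540746-109540995 on the plus strand.
Mest: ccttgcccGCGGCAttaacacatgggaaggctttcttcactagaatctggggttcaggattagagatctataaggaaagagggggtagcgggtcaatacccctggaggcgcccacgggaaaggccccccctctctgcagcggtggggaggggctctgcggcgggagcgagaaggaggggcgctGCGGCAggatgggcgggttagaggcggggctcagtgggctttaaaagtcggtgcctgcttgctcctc
Grb10: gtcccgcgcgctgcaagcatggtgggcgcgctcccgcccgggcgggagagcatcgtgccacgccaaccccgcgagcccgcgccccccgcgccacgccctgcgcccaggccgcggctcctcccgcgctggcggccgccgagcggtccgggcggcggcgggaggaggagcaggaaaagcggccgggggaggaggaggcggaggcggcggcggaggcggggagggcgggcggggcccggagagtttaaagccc
Zrsr1: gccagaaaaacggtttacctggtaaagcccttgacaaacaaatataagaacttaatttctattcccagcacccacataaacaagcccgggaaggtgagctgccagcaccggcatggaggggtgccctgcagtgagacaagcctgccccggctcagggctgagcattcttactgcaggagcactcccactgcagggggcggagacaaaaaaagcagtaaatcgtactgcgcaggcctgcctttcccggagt
Meg3: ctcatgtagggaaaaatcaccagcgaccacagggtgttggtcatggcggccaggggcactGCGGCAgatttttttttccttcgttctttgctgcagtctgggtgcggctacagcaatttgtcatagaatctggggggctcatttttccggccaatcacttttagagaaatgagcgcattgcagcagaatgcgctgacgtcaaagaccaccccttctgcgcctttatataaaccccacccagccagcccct

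In the windows shown, Mest held the hexamer 2 times, Meg3 1 time, and the 250 bases of Grb10 and Zrsr1 did not hold these letters. Mest, Meg3 and Grb10 have other RefSeq promoters, not shown. The Mest window at chr6:30733256-30733505 held the hexamer 0 times, with 7 CG pairs. The other Meg3 window, at chr12:109545148-109545397, held 0 of either. The other Grb10 window, at chr11:12027972-12028221, held the hexamer 0 times, with 8 CG pairs. The Grb10 window shown had 40 CG pairs, that of Mest 14, of Meg3 10 and of Zrsr1 8, beside a median of 6 over all 32851 RefSeq promoters. RefSeq promoters were found for 30 of 38 members, and in 5 of these 30 genes (Meg3, Mest, Nap1l5, Plagl1 and Zim1) the 250 bases of at least 1 promoter held the hexamer, 16.7%, beside 9.84% of 27025 genes. A match says only that the letters are there. Over the 300 bases that also take in the 50 after the start, the hexamer was in 10 of the 30 genes, 33.3%, beside 13.1% of all genes, and the Grb10 promoter shown held it 1 time in those last 50 bases.

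The H19 and Igf2 domain lies at the far end of chromosome 7. H19, a noncoding RNA, is expressed from the maternal copy and Igf2, a fetal growth factor, from the paternal copy, through enhancers and a control region that they share. H19 had log2 values in Ts6 of 2.00 and 1.62, in Ts8 of 1.75 and 1.57, in Ts11 of 2.30 and 2.28, in Ts15 of 3.08 and 2.85, and in WT of 2.63 and 2.37. Ts6, Ts8 and, by little, Ts11 were below WT on both arrays and Ts15 above it, with no overlap. H19 fell in Ts6, -0.68 (SE 0.16, adjusted p = 0.0425), and in Ts8, -0.84 (SE 0.16, adjusted p = 0.0432). It was not called in the other lines (-0.20, SE 0.16, adjusted p = 0.482, in Ts11, and 0.47, SE 0.16, adjusted p = 0.13, in Ts15). Ts15 differed from each of the other 3 lines in the test, most from Ts8, with a difference Ts8 minus Ts15 of -1.31 (SE 0.16, adjusted p = 0.00389). Both calls were near the threshold: each ended without either WT array, with no filter on dim probes, with the slide 1 arrays alone and in a fit to 4 arrays. The Ts6 call also ended without either Ts6 array and with normexp background correction, and the Ts8 call without Ts8 replicate 2 and with passage as a covariate.

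H19 was read by 7 probes that passed the filter, and 6 of them agreed in sign in every line. The other one, the farthest of the 7 toward the 5′ end, gave 0.06 in Ts8 where the others gave -1.14 to -0.84, and -0.30 in Ts15 where the others gave 0.47 to 0.71. That probe was dim, between -6.40 and -5.51 on the 10 arrays, and was well above background on 7 of them and on neither Ts6 array, while the others were on all 10. The probe that stands for H19 and the one that departs are shown, 5′ to 3′, with mm9 positions chr7:149761492-149761551 and chr7:149762417-149762476, both on the minus strand.
H19 probe used: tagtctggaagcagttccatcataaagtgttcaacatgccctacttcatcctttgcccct
H19 probe that departs: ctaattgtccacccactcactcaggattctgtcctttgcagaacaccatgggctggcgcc

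Igf2 had log2 values in Ts6 of -2.68 and -3.15, in Ts8 of -2.73 and -3.45, in Ts11 of -2.99 and -3.34, in Ts15 of -2.22 and -2.60, and in WT of -1.92 and -2.29. Igf2 was not called in any line: the difference was -0.81 (SE 0.29, adjusted p = 0.131) in Ts6, -0.99 (SE 0.29, adjusted p = 0.0954) in Ts8, -1.06 (SE 0.29, adjusted p = 0.0661) in Ts11 and -0.31 (SE 0.29, adjusted p = 0.562) in Ts15. All arrays of Ts6, Ts8 and Ts11 were nevertheless below both WT arrays, and Ts15 overlapped WT. In Ts6, Ts8 and Ts11 both arrays were below WT for H19 and for Igf2, which come from opposite parental copies. Of these differences, only those of H19 in Ts6 and Ts8 were called. Both arrays lay outside the WT range, above or below it, for 57.6%, 55.5% and 53.7% of all genes in Ts6, Ts8 and Ts11.

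Markers of the feeder cells are given beside these values. Of 23 tested feeder fibroblast markers, 22 were below WT in Ts6 (median -0.45), 21 in Ts8 (median -0.25), 18 in Ts11 (median -0.20) and 6 in Ts15 (median 0.13). Their summed signal, in multiples of each array's 75th percentile, was for Ts6 49.2 and 62.0, for Ts8 63.1 and 55.4, for Ts11 69.8 and 58.9, for Ts15 74.2 and 85.1, and for WT 70.9 and 71.2. Among them 2 were called lower in Ts6 (Col5a2 and Fstl1) and 1 higher in Ts15 (Acta2), and Postn and Fap were not well above background on either Ts6 array. The part of feeder RNA in the H19, Igf2 and other member values was not tested. In such bulk RNA, fewer cells of a type and less RNA per cell cannot be told apart.

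The Kcnq1ot1 domain lies next to H19 and Igf2. Its paternally expressed noncoding RNA, Kcnq1ot1, is known to silence several neighbours on the same chromosome, so that Cdkn1c, Phlda2, Slc22a18 and Ascl2 are expressed from the maternal copy, some of them only in the placenta. Cdkn1c encodes the cell cycle inhibitor p57Kip2. Cdkn1c had log2 values in Ts6 of 0.61 and 0.76, in Ts8 of 2.15 and 2.44, in Ts11 of 0.89 and 0.74, in Ts15 of 1.95 and 1.96, and in WT of 1.64 and 1.62. Ts6 and Ts11 were below WT, Ts15 slightly above it and Ts8 highest, with no array of these groups inside the WT range of 1.62 to 1.64. Cdkn1c fell in Ts6, -0.94 (SE 0.13, adjusted p = 0.00487), a 1.92-fold lower signal, and in Ts11, -0.82 (SE 0.13, adjusted p = 0.0117), 1.76-fold lower. It rose in Ts8, 0.67 (SE 0.13, adjusted p = 0.0407), 1.59-fold higher, and was not called in Ts15, 0.32 (SE 0.13, adjusted p = 0.171). Ts8 and Ts15 each differed from Ts6 and from Ts11 in the test. The span between Ts6 and Ts8 was -1.61 (Ts6 minus Ts8, adjusted p = 0.000355). The Ts6 call held under every alternative run. The Ts11 call ended without WT replicate 2, without Ts11 replicate 2, in a fit to 4 arrays and with passage as a covariate, and the Ts8 call without either WT array, without Ts8 replicate 2, with the replicate block, with no filter on dim probes, with the slide 1 arrays alone, in a fit to 4 arrays and with passage as a covariate.

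Phlda2, which limits growth of the placenta, and Slc22a18, a membrane transporter gene beside it, did not follow one pattern. Phlda2 had log2 values in Ts6 of 0.50 and 0.39, in Ts8 of 1.05 and 1.27, in Ts11 of -0.20 and -0.35, in Ts15 of 1.06 and 0.80, and in WT of 0.32 and 0.82. Only the Ts11 arrays were below the WT range, and both Ts8 arrays were above it. Phlda2 fell in Ts11, -0.85 (SE 0.18, adjusted p = 0.0342), and was at 0.59 (SE 0.18, adjusted p = 0.109) in Ts8 without a call. Its Ts11 call ended without WT replicate 2, without either Ts11 array, with no filter on dim probes, with the slide 1 arrays alone, in a fit to 4 arrays and with passage as a covariate. Slc22a18 had log2 values in Ts6 of 0.33 and 0.07, in Ts8 of -0.51 and -0.70, in Ts11 of -0.51 and -0.35, in Ts15 of -0.16 and -0.24, and in WT of -0.60 and -0.77. Ts6 was highest, Ts15 and Ts11 were also above WT on both arrays, and Ts8 overlapped WT. Slc22a18 rose in Ts6, 0.89 (SE 0.14, adjusted p = 0.00852), a 1.85-fold higher signal, and so moved the other way from Cdkn1c in that line. The call ended without WT replicate 2, without Ts6 replicate 1 and with passage as a covariate.

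Kcnq1ot1 itself varied widely between replicates. Kcnq1ot1 had log2 values in Ts6 of -2.37 and -1.91, in Ts8 of -1.49 and -0.75, in Ts11 of -0.96 and -0.72, in Ts15 of -2.15 and -2.58, and in WT of -2.32 and -1.11. The WT arrays lay far apart, both Ts11 arrays were above them and the other lines overlapped them. No line was called against WT, although Ts11 exceeded Ts15 by 1.52 (SE 0.41, adjusted p = 0.0451). That pair call ended in 8 of 13 repeats, among them quantile normalization and the deposited series table. Ascl2 encodes a transcription factor needed in the trophoblast. Ascl2 had log2 values in Ts6 of -0.79 and -0.55, in Ts8 of -0.36 and -0.62, in Ts11 of 0.04 and -0.89, in Ts15 of 0.47 and 0.56, and in WT of -0.02 and 0.05. The values in Ts15 were the highest, and Ts6 and Ts8 differed from Ts15 in the test by -1.18 and -1.00, with none called against WT. The Ascl2 call between Ts8 and Ts15 ended in 9 of 13 repeats, and that between Ts6 and Ts15 in 4 of 13. Cd81, which encodes a tetraspanin, lay between -0.18 and 0.04 of WT in the 4 lines and was not called.

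**Figure D3:**
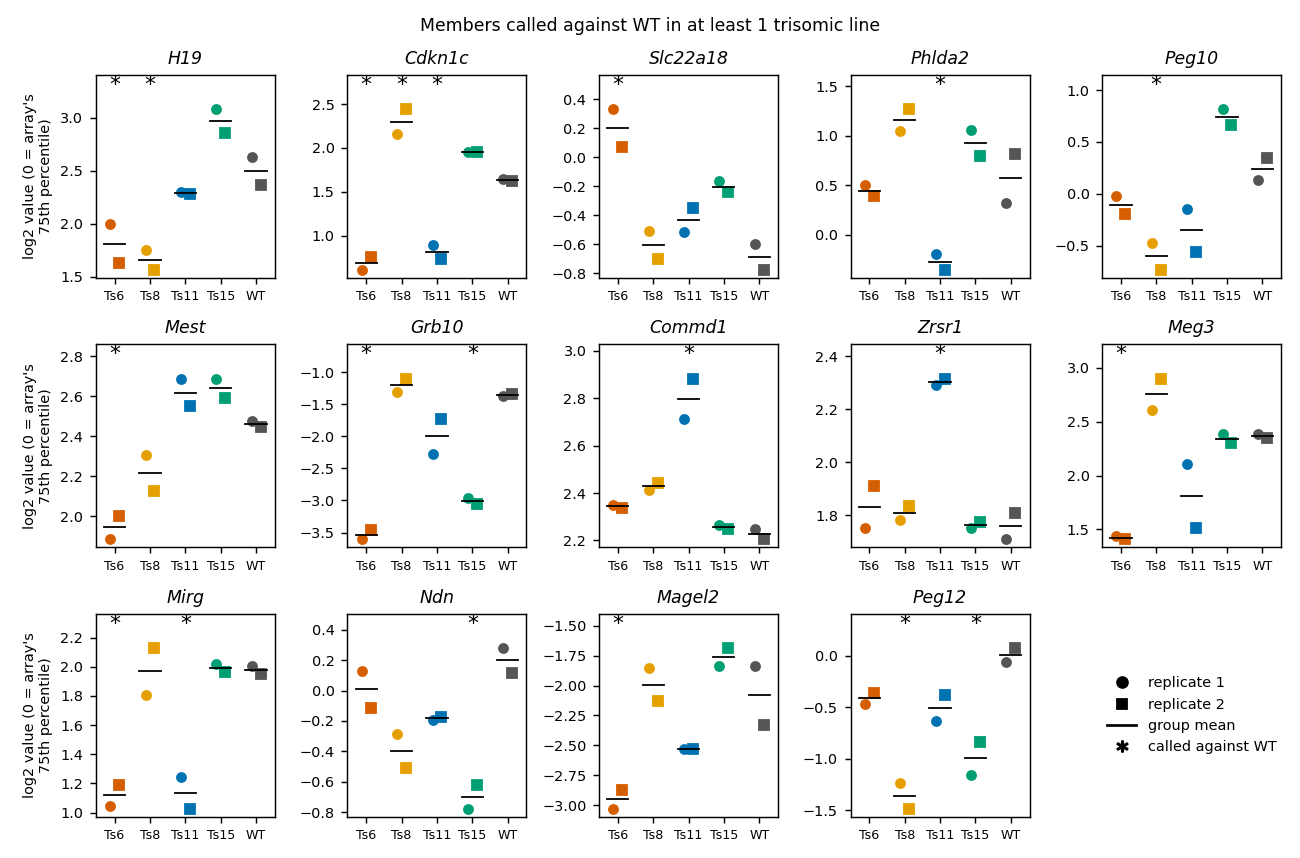
Log2 values (0 is the array's 75th percentile) of the 14 members called against WT in at least 1 line, by group; circles are replicate 1, squares replicate 2, black bars group means, and a star marks the line called. The 2 arrays of Ts6 and of Ts11 lie below WT for Cdkn1c, Meg3 and Mirg. Those of Ts8 lie above WT for Cdkn1c and Meg3 and on either side of it for Mirg.

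In the Dlk1-Dio3 domain on chromosome 12, Dlk1 and Rtl1 are expressed from the paternal copy and the noncoding RNAs Meg3, Rian and Mirg from the maternal copy. Silencing of the maternal noncoding RNAs is known in some pluripotent lines. Meg3 had log2 values in Ts6 of 1.43 and 1.41, in Ts8 of 2.61 and 2.90, in Ts11 of 2.10 and 1.52, in Ts15 of 2.38 and 2.30, and in WT of 2.39 and 2.35. Ts6 was lowest, Ts11 was also below WT on both arrays, and Ts8 was above it. Meg3 fell in Ts6, -0.95 (SE 0.19, adjusted p = 0.0233), a 1.93-fold lower signal, and was not called in Ts11, -0.56 (SE 0.19, adjusted p = 0.118). Mirg had log2 values in Ts6 of 1.05 and 1.19, in Ts8 of 1.81 and 2.13, in Ts11 of 1.24 and 1.03, in Ts15 of 2.02 and 1.96, and in WT of 2.00 and 1.95. Mirg, which hosts a cluster of microRNAs, was lower in the same lines, Ts6 and Ts11, and overlapped WT in Ts8 and Ts15. It fell in Ts6, -0.86 (SE 0.14, adjusted p = 0.01), and in Ts11, -0.84 (SE 0.14, adjusted p = 0.0141), each about 1.79-fold to 1.81-fold lower.

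Separate probes told the same for both RNAs in these lines. The 3 Meg3 probes, spread over the transcript, gave -1.04 to -0.83 in Ts6 and -0.75 to -0.51 in Ts11, and the 2 Mirg probes gave -0.86 and -0.68 in Ts6 and -0.92 and -0.84 in Ts11. In Ts8 all 3 Meg3 probes were between 0.38 and 0.41. The probes that stand for the 2 RNAs are shown, 5′ to 3′, at chr12:110809678-110809737 (Meg3) and chr12:110987569-110987628 (Mirg) of mm9, both on the plus strand.
Meg3 probe used: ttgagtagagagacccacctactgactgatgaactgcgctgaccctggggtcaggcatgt
Mirg probe used: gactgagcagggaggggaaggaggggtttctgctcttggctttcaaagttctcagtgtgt

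The differences between lines were tested as well. Ts6 minus Ts8 was -1.33 (SE 0.19, adjusted p = 0.00528) for Meg3 and -0.85 (SE 0.14, adjusted p = 0.009) for Mirg, and Ts8 minus Ts11 was 0.94 (SE 0.19, adjusted p = 0.0257) and 0.83 (SE 0.14, adjusted p = 0.0123). Dlk1, a transmembrane protein related to Notch ligands, was not called in any line, with a difference of -0.48 for Ts6, -0.49 for Ts8, -0.50 for Ts11 and -0.10 for Ts15. Both arrays of Ts6, Ts8 and Ts11 were below both WT arrays for Dlk1. Rtl1, derived from a retrotransposon, lay between -0.16 and 0.35 and was not called. The Meg3 call ended when any of the 4 arrays was left out and with passage as a covariate. The Mirg call in Ts6 ended without WT replicate 1, without Ts6 replicate 1 and with passage as a covariate, and in Ts11 without either WT array, without Ts11 replicate 2, in a fit to 4 arrays and with passage as a covariate.

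**Figure D4:**
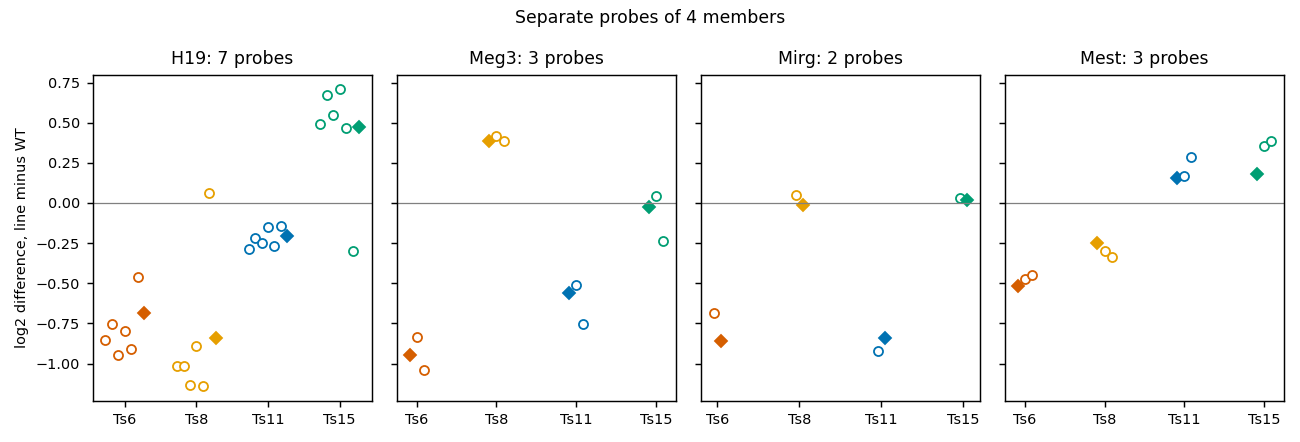
Log2 differences from WT for each probe of H19, Meg3, Mirg and Mest that passed the filter, by line; filled diamonds are the probes that stand for the genes. The probes of a gene cluster together in each line except for 1 H19 probe in Ts8 and Ts15.

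The Prader-Willi/Angelman domain on chromosome 7 holds Snrpn, Ndn, Magel2, Mkrn3 and Peg12, expressed from the paternal copy, and Ube3a, a ubiquitin ligase expressed from the maternal copy in neurons and from both copies in most other cells. Its members were called in different lines. Peg12 belongs to the Frat family, which binds the kinase GSK3. Peg12 had log2 values in Ts6 of -0.47 and -0.36, in Ts8 of -1.24 and -1.49, in Ts11 of -0.63 and -0.38, in Ts15 of -1.16 and -0.83, and in WT of -0.06 and 0.08. All 8 trisomic arrays were below both WT arrays. It fell in Ts8, -1.37 (SE 0.16, adjusted p = 0.0147), a 2.59-fold lower signal, and in Ts15, -1.00 (SE 0.16, adjusted p = 0.0121), 2-fold lower, and the mean of the 4 lines was also called lower than WT, -0.83 (SE 0.12, adjusted p = 0.0193). Its other probe had the same sign in all 4 lines, from -0.72 to -0.09.

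Ndn and Magel2 encode members of the MAGE family. Ndn had log2 values in Ts6 of 0.13 and -0.11, in Ts8 of -0.28 and -0.51, in Ts11 of -0.19 and -0.17, in Ts15 of -0.78 and -0.62, and in WT of 0.28 and 0.12. Ts15 was lowest, Ts8 and Ts11 were also below WT on both arrays, and Ts6 overlapped WT. Ndn fell in Ts15, -0.90 (SE 0.13, adjusted p = 0.0104), and was not called in Ts8, -0.59 (SE 0.13, adjusted p = 0.0563). Magel2 had log2 values in Ts6 of -3.03 and -2.88, in Ts8 of -1.85 and -2.13, in Ts11 of -2.53 and -2.53, in Ts15 of -1.84 and -1.69, and in WT of -1.83 and -2.33. Here Ts6 was lowest and Ts11 also below the WT range, while Ts15 was not lower. Magel2 fell in Ts6, -0.87 (SE 0.18, adjusted p = 0.0244), a 1.83-fold lower signal, and differed between Ts6 and Ts15 by -1.19 (SE 0.18, adjusted p = 0.00486). For Ndn the difference Ts6 minus Ts15 was 0.71 (SE 0.13, adjusted p = 0.0121), so these neighbours differed between Ts6 and Ts15 in opposite directions.

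Snrpn had log2 values in Ts6 of 2.90 and 2.88, in Ts8 of 3.13 and 3.28, in Ts11 of 3.29 and 3.09, in Ts15 of 3.36 and 3.37, and in WT of 3.42 and 3.15. Snrpn, which encodes a small nuclear ribonucleoprotein, was called only between Ts6 and Ts15, -0.48 (SE 0.13, adjusted p = 0.0397). This call ended in 9 of 13 repeats, among them quantile normalization, the deposited series table and the mean of all probes. Mkrn3, a RING finger gene, lay between -0.53 and 0.03 of WT, and Ube3a between -0.23 and 0.48, with no call. The Ndn call ended without Ts15 replicate 1 and in a fit to 4 arrays. The Peg12 calls ended without WT replicate 2, without Ts8 replicate 2 (Ts8) or Ts15 replicate 1 (Ts15), in a fit to 4 arrays and with passage as a covariate. The Magel2 call ended without WT replicate 1, without either Ts6 array, in a fit to 4 arrays and with passage as a covariate.

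The remaining domains had no call against WT. Peg3, a paternally expressed zinc finger gene on chromosome 7, was lowest in Ts6. Peg3 had log2 values in Ts6 of -0.93 and -0.84, in Ts8 of -0.07 and 0.03, in Ts11 of -0.01 and -0.37, in Ts15 of -0.37 and -0.30, and in WT of 0.04 and -0.51. Both Ts6 arrays were below all 8 others, the difference was -0.65 (SE 0.19, adjusted p = 0.08), and Ts6 differed from Ts8 by -0.87 (SE 0.19, adjusted p = 0.0265). Its other probe gave -0.87 in Ts6, with an adjusted p of 0.021 in the fit to all probes. Nnat encodes neuronatin, a small membrane protein. Nnat had log2 values in Ts6 of 0.89 and 0.41, in Ts8 of 0.17 and -0.09, in Ts11 of 0.75 and 0.22, in Ts15 of 0.88 and 0.97, and in WT of 1.08 and 0.84. The lowest values were in Ts8, -0.92 (SE 0.22, adjusted p = 0.0652), and Ts8 differed from Ts15 by -0.89 (SE 0.22, adjusted p = 0.0353). Nespas is a paternally expressed antisense RNA of the Gnas domain on chromosome 2. Nespas had log2 values in Ts6 of -3.74 and -3.85, in Ts8 of -3.87 and -4.37, in Ts11 of -3.52 and -4.03, in Ts15 of -3.22 and -3.15, and in WT of -3.59 and -3.27. It too was called only between Ts8 and Ts15, -0.94 (SE 0.22, adjusted p = 0.0286).

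Gnas, which encodes the stimulatory G protein subunit, lay between -0.27 and -0.10 of WT by the probe used. Its other tested probes did not all agree in sign. A dim one was lower in Ts15, with an adjusted p of 0.039 in the fit to all probes. That probe was not well above background on either Ts15 array, so no size is given for it. Igf2r, the receptor that clears IGF2, lay between -0.05 and 0.38, and Airn, the noncoding RNA that silences it on the paternal copy, between -0.11 and 0.25. Airn had 4 tested probes that did not agree: 1 other probe gave 1.32 in Ts11 with an adjusted p of 0.007 in the fit to all probes, while the probe used gave 0.24. Plagl1, a zinc finger factor, lay between -0.05 and 0.13, and Impact, which regulates the kinase GCN2, between 0.25 and 0.36. By the probe used, none of these 5 genes was called in any comparison.

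Differences among the 4 lines were tested directly, since a call in 1 line and none in another is no test of their difference. By the moderated F test, 17 of 34 members differed among the lines, 50.0%, beside 28.8% of all genes. The smallest adjusted p-values were those of Cdkn1c (adjusted p = 0.000574) and Grb10 (adjusted p = 0.00076). Over the 6 pairs of lines, 53 of 204 member and pair combinations were called, beside 13.2% of combinations over all genes. By pair, the calls numbered 9 for Ts6 against Ts8 (13.7% of all genes called), 6 for Ts6 against Ts11 (7.31%), 11 for Ts6 against Ts15 (18.2%), 7 for Ts8 against Ts11 (7.83%), 7 for Ts8 against Ts15 (17.2%) and 13 for Ts11 against Ts15 (15.1%).

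Since Ts15 was on another slide, the 3 lines of slide 1 were also compared among themselves, an alternative chosen after the data were seen. There 11 of 34 members differed, beside 11.8% of all genes: Cdkn1c, Grb10, Phlda2, Peg12, Meg3, Mirg, Slc22a18, Mest, Magel2, Peg13 and Zrsr1. H19, Peg10, Commd1, Ndn, Ascl2 and Peg3 were among the 17 and not among these 11. The comparison of the mean of the 4 lines with WT called 3 members, beside 3.84% of all genes, with 0 higher (1.9% of all genes) and 3 lower (1.95%), namely Grb10 (-1.08, SE 0.14, adjusted p = 0.0139), Ndn (-0.52, SE 0.11, adjusted p = 0.044) and Peg12. The Ndn call for this mean ended in 12 of 19 repeats, among them the replicate block (adjusted p = 0.0508), passage as a covariate, no filter on dim probes and the loss of any 1 array other than Ts8 replicate 1. Those of Grb10 and Peg12 ended without either WT array and with passage as a covariate.

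By the allele that background knowledge gives as expressed, 13 tested members are maternal and 21 paternal. In Ts6, 10 of 13 maternal members were below WT with a median of -0.18, and 17 of 21 paternal members with a median of -0.37. In Ts11, 8 of 13 maternal members were below WT (median -0.27), and 9 of 21 paternal members (median 0.05). In Ts8 the counts were 4 of 13 (median 0.15) and 13 of 21 (median -0.06), and in Ts15 4 of 13 (median 0.03) and 12 of 21 (median -0.05). The lower values in Ts6 were thus seen in both classes, and the comparison of the classes was not tested. The classes do not give the copy used in these cells. Some members classed as maternal, Ube3a and Commd1 among them, are so expressed only in some tissues.

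A list of other imprinted genes, 43 of them tested, had 6, 1, 4 and 4 calls in Ts6, Ts8, Ts11 and Ts15. The shares were 14%, 2.33%, 9.3% and 9.3%, beside 9.04%, 3.56%, 8.13% and 7.48% of all genes. Sfmbt2, a Polycomb-related gene whose introns hold a microRNA cluster, fell in Ts6 (-1.22, SE 0.10, adjusted p = 0.000769), in Ts8 (-1.73, SE 0.10, adjusted p = 0.00126) and in Ts11 (-0.49, SE 0.10, adjusted p = 0.0293). Calcr, the calcitonin receptor gene next to Peg10 and Sgce, fell in Ts6 (-2.41, SE 0.40, adjusted p = 0.0116), where chromosome 6 has 3 copies, and in Ts11 (-1.98, SE 0.40, adjusted p = 0.0286). Its probe was dim, with log2 values of -5.42 and -5.69 in Ts6 and -4.62 and -5.62 in Ts11. Signal near background thus limits the sizes of both Calcr differences. On chromosome 6, 2 neighbours were higher in Ts6: Pon3, of the paraoxonase family, by 1.32 (SE 0.19, adjusted p = 0.00582), and Copg2, which partly overlaps Mest, by 0.64 (SE 0.12, adjusted p = 0.0181). Mest and Copg2, which lie side by side, were therefore called in opposite directions in Ts6. Pon3 was also called higher in Ts11 and Ts15.

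Further calls in this list included Osbpl5 (Ts6, -0.72), Zim3 (Ts15, -0.72), Ddc on chromosome 11 (Ts15, -1.17) and H13 (Ts11, 0.44). Of its genes on chromosome 8, Gab1 had a difference of 0.84 (SE 0.18, adjusted p = 0.0506) in Ts8. On chromosome 15, Trappc9, whose intron holds Peg13, had 0.58 (SE 0.17, adjusted p = 0.087) in Ts15 and Slc38a4 0.11 (SE 0.13, adjusted p = 0.65), neither called.

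Among 31 tested factors that write or keep imprints, 3, 1, 6 and 1 were called in Ts6, Ts8, Ts11 and Ts15. These are 9.68%, 3.23%, 19.4% and 3.23%, beside 9.04%, 3.56%, 8.13% and 7.48% of all genes. Dppa3, on chromosome 6, protects maternal methylation in the zygote. Dppa3 had log2 values in Ts6 of 0.58 and 0.07, in Ts8 of -1.36 and -1.98, in Ts11 of 1.02 and -0.02, in Ts15 of -1.73 and -1.86, and in WT of -2.68 and -2.76. Ts6 and Ts11 were the highest groups, and the arrays of Ts8 and Ts15 were also above both WT arrays. Dppa3 rose by 3.05 (SE 0.35, adjusted p = 0.00261) in Ts6 and by 3.22 (SE 0.35, adjusted p = 0.00354) in Ts11. Any link between Dppa3 and the member values was not tested. Ctcfl, a germline relative of the insulator protein CTCF, was called higher in all 4 lines, by 1.25 for Ts6, 1.34 for Ts8, 1.72 for Ts11 and 1.17 for Ts15. Dnmt3b, a DNA methyltransferase gene, fell in Ts11 (-0.65, SE 0.15, adjusted p = 0.0452), and Nlrp2, a maternal-effect gene, in Ts6 (-1.37, SE 0.25, adjusted p = 0.0161). Also called in Ts11 were Suz12 on chromosome 11 (0.63), Tet2 (0.48) and Arid4b (0.78).

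Markers of the endoderm stood apart in Ts15. Of 10 endoderm markers, all 10 were above WT in Ts15 (median 1.21) and 6 were called higher: Gata4, Gata6, Sox17, Sox7, Foxa2 and Dab2. Their summed signal was for Ts6 5.44 and 4.66, for Ts8 4.78 and 4.81, for Ts11 3.76 and 4.10, for Ts15 15.6 and 11.6, and for WT 5.32 and 5.41. H19, Sgce, Peg10 and Ascl2 also had their highest values in Ts15, but none of these was called there against WT. The 3 members called in Ts15, Grb10, Ndn and Peg12, were lower than WT. Ts15 was also the only group on slide 2. Any part of the endoderm markers in the member values was not tested. Ttr alone of the 10 was not well above background on either array of Ts6, Ts8 and Ts11. Of 7 trophectoderm markers, 2 were called higher in Ts6 (Hand1, and Tpbpa, which was well above background on the Ts6 arrays alone and so passed the filter through them), 1 in Ts8 (Cdx2, lower), 0 in Ts11 and 1 in Ts15 (Hand1, higher). Of 7 mesoderm markers, Ts6 had 3 called (Hand1 higher, and Mesp1 and Isl1 lower, both not well above background in Ts6), Ts8 1 (T, lower), Ts11 0 and Ts15 1 (Hand1, higher). Of 7 neuroectoderm markers, 2 were called in Ts6 (Nes and Sox11, lower) and 1 in Ts11 (Sox11, lower). The background for these marker counts was 9.04%, 3.56%, 8.13% and 7.48% of all genes in Ts6, Ts8, Ts11 and Ts15.

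**Figure D5:**
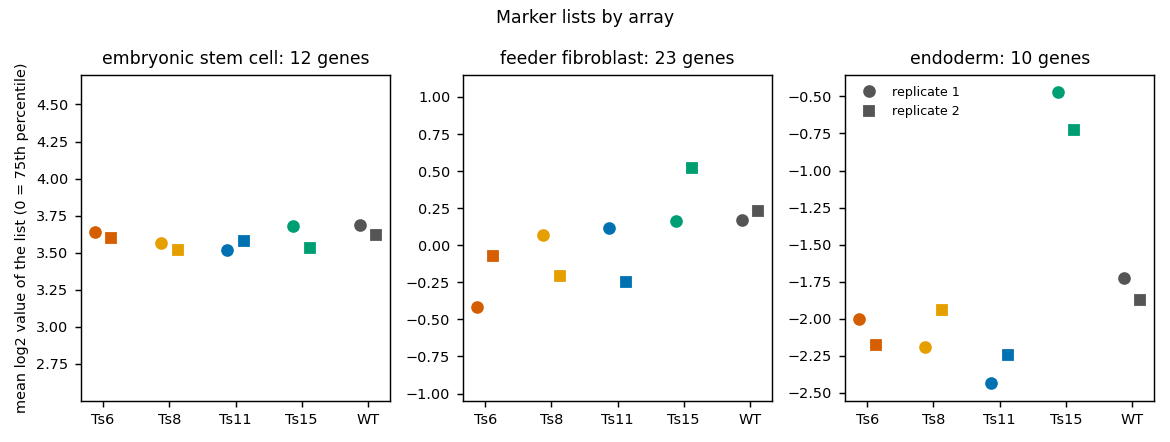
Mean log2 value (0 is the array's 75th percentile) of the ES cell, feeder fibroblast and endoderm marker lists on each array, by group, with the same span on each axis; circles are replicate 1 and squares replicate 2. Both Ts15 arrays lie above all others for the endoderm list, and the feeder list is lowest on Ts6 replicate 1.

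Passage differed between WT and most trisomic arrays, and 15 of the 20 calls ended with passage as a covariate. At 1 passage, 18, an array of Ts6 and an array of WT can be set side by side. There, all 8 members called in Ts6 differed in the called direction, with Ts6 minus WT at -2.10 for Grb10, -1.04 for Magel2, -1.00 for H19, -0.98 for Meg3, -0.88 for Cdkn1c, -0.81 for Mirg, -0.48 for Mest and 0.67 for Slc22a18. These are single arrays, with no test. Both were among the arrays that gave the calls, and only called members were looked at. The shared direction is therefore no separate support for the calls. For the other lines no passage matched one of WT, so the part of passage in their differences cannot be told apart from that of the line.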

How the data were processed

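RNA of 10 ES cell samples in 5 groups was read on 1-colour Agilent mouse arrays. Per the file headers, the deposited intensity values (processed signal) were made by the authors with Agilent Feature Extraction 10.7.3.1, with detrending on, background correction off and probes placed on mm9. The deposited series table holds log2 values whose scale and centring are not stated, so it served only as an alternative. Ts15 replicate 2 was deposited with intensities in 3 significant digits.

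Intensities were taken to log2, with the 75th percentile of each array over noncontrol probes subtracted. Spots of a probe were averaged without those flagged as outliers, and 176 of 55681 probes with no unflagged spot on some array were left out. Leaving out every probe with any flagged spot, as first planned, was run as an alternative. A probe was kept if, in 1 group or more, both arrays had it well above background (43056 probes), and the probe with the highest mean stood for its gene. The tests used limma (version 3.58.1, under R 4.3.3) with a mean for each of the 5 groups, fitted to all 10 arrays, two-sided, with Benjamini-Hochberg adjustment over 28020 genes in each comparison. The code was tested on simulated data. Members called in any comparison, or on chromosome 6, 11 or 15, are given on every array; of the further lists, some called genes and some on chromosomes 6, 8, 11 and 15 are named, and 1 called gene is not reported here. The members and lists were chosen with earlier results of these data known. Sequences are from RefSeq (GRCm38.p6) and from the array's probes. Alternatives covered background correction, normalization, probe filters, the probe of a gene, slide, passage, replicate block, the arrays fitted, and leaving out each array.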

Additional observations from a re-analysis of the deposited data

Results flagged for a closer look

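These 17 members are listed because the 4 trisomic lines differed among themselves in the effect against WT, by limma's moderated F test across the line means with 2 arrays per line. The adjusted p was 0.000574 for Cdkn1c, 0.00076 for Grb10, 0.00476 for H19, 0.00487 for Mirg, 0.00543 for Phlda2, 0.00599 for Peg10, 0.00857 for Meg3, 0.00922 for Magel2, 0.00937 for Mest, 0.0115 for Peg12, 0.0174 for Slc22a18, 0.0182 for Zrsr1, 0.0206 for Peg13, 0.021 for Commd1, 0.0261 for Ndn, 0.042 for Ascl2 and 0.0424 for Peg3. The background was 28.8% of all genes, and Ts15 was on a slide of its own. Among the 3 lines of slide 1 alone, Cdkn1c had an adjusted p of 0.00231, Grb10 0.0028, Phlda2 0.0135, Peg12 0.0167, Meg3 0.0216, Mirg 0.0232, Slc22a18 0.0331, Mest 0.0335, Magel2 0.0455, Peg13 0.0455 and Zrsr1 0.0464, while Commd1 had 0.0653 and Peg3 0.0662. In direction, Cdkn1c was called lower in Ts6 and Ts11 and higher in Ts8, the only member called in both directions. The causes of these differences were not tested.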

How the results depend on the processing

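The counts of members called kept within 1.5 times of the values given in 88 of 116 repeats, and no called difference changed sign in any. The 20 calls against WT were all kept with quantile normalization, with the deposited series table and with only probes above background on all 10 arrays. Some calls between pairs of lines ended both with quantile normalization and with the deposited series table. Among them were Snrpn between Ts6 and Ts15, Kcnq1ot1 between Ts11 and Ts15 and Ascl2 between Ts8 and Ts15. The numbers that moved were these. With passage as a covariate, 4 members were called in Ts6, 0 in Ts8, 0 in Ts11 and 0 for the mean of the 4 lines. With only the 4 arrays compared, 5 were called in Ts6, 0 in Ts8 and 0 in Ts11. With no filter on dim probes, and with only the 8 arrays of slide 1, 1 was called in Ts8. Leaving out each array in turn gave 2 to 5 calls in Ts6, 0 to 5 in Ts8, 0 to 5 in Ts11, 1 to 3 in Ts15, 0 to 3 for the mean of the 4 lines, 11 to 19 for any difference among the lines and 28 to 52 for the pairs of lines. An arm left with 1 array is assumed to vary like the other groups, and fewer arrays leave fewer degrees of freedom. The cause of the losses with passage was not tested; WT had the highest passage numbers. With the replicate number as a block, 9, 4, 6 and 3 members were called in Ts6, Ts8, Ts11 and Ts15, 3 for the mean, 20 for any difference among the lines and 57 for the pairs, and the calls of Cdkn1c and Peg10 in Ts8, Ndn for the mean, Phlda2 between Ts6 and Ts8 and Ascl2 between Ts8 and Ts15 ended. Same-numbered arrays of different groups correlated from -0.10 to 0.39 in their deviations, so the numbers were not taken to pair the samples. Of 20 calls, 3 (Grb10 in Ts6 and Ts15, Cdkn1c in Ts6) held in every repeat. Signal near background limits Nap1l5, Nespas, Rtl1, Mkrn3 and Peg13, whose probes are dim, and 1 of the 7 H19 probes. The only Grb10 probe was at a similar level in Ts6 and Ts15, so the same limit holds for its fold sizes there. Usp29, Rasgrf1 and Zim1 could not be compared.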
